A study of Mus musculus with 8 samples.

Results

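The importin beta family members described here are Ipo13 and 9 related nuclear import receptor genes of the mouse, namely Ipo4, Ipo5, Ipo7, Ipo8, Ipo9, Ipo11, Tnpo1, Tnpo2 and Tnpo3. They were chosen by symbol, all 10 were found among the 23420 gene rows of the count files, and all 10 were among the 19424 genes that had at least 1 count in any library and were tested. The question was whether any of the 9 paralogs was higher in cells without IPO13, or after oxidative stress.

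The cells were mouse embryonic stem cells (mESCs), pluripotent cells from day 5 preimplantation blastocysts of a 129 x C57BL/6 background, grown without feeder cells on gelatin with the cytokine LIF. IPO13+/+ (WT) and IPO13-/- (KO) mESCs were left untreated (NS) or exposed to 125 µM H2O2 for 1 h and returned to clean medium for 2 h (ST). The 4 groups, WT-NS, WT-ST, KO-NS and KO-ST, held 2 RNA-seq libraries each, 8 in all. The number of independent lines or clones behind each genotype, and whether the 2 libraries of a group came from separate cultures, are not given in the sources used here, so p-values measure only the spread between these libraries, which may be technical.

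Proteins of the importin beta family carry cargo through nuclear pore complexes, binding it directly or through an adaptor. Import receptors release their cargo when they bind the GTPase RAN in its GTP form, which is abundant in the nucleus, and return to the cytoplasm with it. IPO13 is unusual in that it carries some proteins in and others out of the nucleus. In embryonic stem cells the family is of interest because transcription factors that hold the pluripotent state must be imported to act.

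To give the genes at the centre of the account their genomic setting, the 250 bases directly upstream of the start site are printed for 4 members, from the RefSeq promoter table for GRCm38.p6. These are the targeted gene Ipo13, the paralog Ipo5 with the largest fall in KO cells, and Tnpo2 and Ipo11, which moved with stress in both genotypes. Where a gene has more than 1 start site the most upstream is used. Each is printed 5′ to 3′ on the strand of its gene, with capitals marking every match to the GC box GGGCGG on either strand (CCGCCC on the opposite strand). The windows lie at chr4:117915000-117915249 on the minus strand, chr14:120910944-120911193 on the plus strand, chr8:85036643-85036892 on the plus strand and chr13:106936959-106937208 on the minus strand, in that order, and none of the 4 overlaps an annotated exon.
Ipo13: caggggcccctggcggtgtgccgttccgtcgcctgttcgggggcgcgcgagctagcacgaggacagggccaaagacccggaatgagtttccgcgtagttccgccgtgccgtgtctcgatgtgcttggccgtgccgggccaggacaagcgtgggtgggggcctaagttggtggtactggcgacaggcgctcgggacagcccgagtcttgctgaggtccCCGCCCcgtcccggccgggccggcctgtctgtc
Ipo5: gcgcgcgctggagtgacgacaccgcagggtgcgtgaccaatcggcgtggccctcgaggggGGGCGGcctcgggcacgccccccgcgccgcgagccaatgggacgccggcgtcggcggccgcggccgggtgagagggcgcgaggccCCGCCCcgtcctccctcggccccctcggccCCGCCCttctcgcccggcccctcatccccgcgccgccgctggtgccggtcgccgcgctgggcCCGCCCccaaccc
Tnpo2: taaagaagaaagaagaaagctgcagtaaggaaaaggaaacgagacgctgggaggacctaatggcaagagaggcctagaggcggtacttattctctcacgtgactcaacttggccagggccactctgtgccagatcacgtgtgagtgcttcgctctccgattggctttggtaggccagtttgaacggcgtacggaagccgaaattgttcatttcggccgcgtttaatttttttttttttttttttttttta
Ipo11: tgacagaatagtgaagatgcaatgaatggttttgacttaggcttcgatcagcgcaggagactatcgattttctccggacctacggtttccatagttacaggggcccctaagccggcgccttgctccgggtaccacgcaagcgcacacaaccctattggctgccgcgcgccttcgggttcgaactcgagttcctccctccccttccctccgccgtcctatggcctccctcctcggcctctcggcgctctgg

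The Ipo5 window held 4 GC boxes and a GC content of 82.4%, and the Ipo13 window 1 GC box and 70.4%. The windows of Tnpo2 and Ipo11 held none, with 46% and 59.2% GC. All 10 members were in the promoter table, and 4 of their 10 windows (Ipo13, Ipo5, Ipo9 and Tnpo1) held a GC box, against 32.7% of all 32807 promoter windows of this length. CCAAT, searched with ATTGG for the other strand, was found in Ipo5, Ipo11 and Tnpo2 and in 33.8% of all windows. The core of the antioxidant response element, TGACNNNGC with GCNNNGTCA on the other strand, was found in the windows of Ipo4 and Tnpo3 and in 10.2% of all windows. TATAAA or TTTATA was found in the Ipo7 window and in 12.4% of all windows. No match of 1 of these motifs overlapped a match of another in any of the 10 windows. These matches describe the letters of the windows and nothing was measured at them.

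Between 60397877 and 73789079 reads per library were counted on genes, so that 3 counts, taken as the least that can be told from 0, correspond to at most 0.0497 CPM (the count scaled to the library total), which covers counting error only. The stem cell markers Pou5f1, Nanog, Sox2, Klf4, Zfp42, Esrrb and Tfcp2l1 were all present, with a summed level of 4392 to 4976 CPM. Their sum was 4932 to 4976 CPM in WT-NS, 4642 to 4651 in WT-ST, 4431 to 4451 in KO-NS and 4392 to 4418 in KO-ST. From WT-NS to KO-NS the single markers went different ways. Mean levels rose for Nanog (527 to 569 CPM) and Klf4 (433 to 475) and hardly moved for Sox2 (421 to 420). They fell for Tfcp2l1 (1075 to 779), Esrrb (970 to 803), Zfp42 (79.2 to 68.0) and, with overlapping libraries, Pou5f1 (1448 to 1328). Summed markers of primitive endoderm (4 genes) lay between 3.89 and 5.20 CPM, of trophectoderm (4 genes) between 16.4 and 33.2, and of fibroblasts (4 genes) between 6.25 and 9.19. The trophectoderm sum was 29.3 to 33.2 in WT-NS and 20.6 to 20.7 in KO-NS, almost all of it Eomes and Krt18, while Cdx2 and Elf5 stayed at or below 0.388 and 0.260 CPM. The fibroblast collagen Col3a1 lay between 0 and 0.0161 CPM in all libraries, Col1a2 between 0.130 and 0.402, and Thy1 between 3.88 and 6.39. Col1a1 differed more between the groups. It was at 2.40 and 2.23 CPM in WT-NS, 4.76 and 4.33 in WT-ST, 0.938 and 1.29 in KO-NS, and 1.39 and 2.04 in KO-ST. The part of these shifts in the results below was not tested. The libraries of a group differed by more than counting noise in every group, most in WT-NS, where chi-square per gene was 15.0 against 2.26 to 6.59 in the other groups. The main fit used a spread per gene shared by the 4 groups, so its p-values do not allow for the larger spread in WT-NS.

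Ipo13 transcripts were reduced in the KO libraries but not absent. The counts on Ipo13 were 4716 and 4786 in WT-NS, 4928 and 4791 in WT-ST, 1965 and 1555 in KO-NS, and 1610 and 1604 in KO-ST. In CPM after scaling with trimmed mean of M-values (TMM) factors, these were 70.3 and 68.3, 72.4 and 69.3, 25.9 and 25, and 24.9 and 25.9. All 4 KO libraries lay below all 4 WT libraries, so the targeted gene went with the labels. Untreated KO cells held 36.8% of the WT level (log2 fold change -1.44 ± 0.05 SE, n = 2 against 2), with an adjusted p of 9.5e-19 from edgeR's quasi-likelihood test with Benjamini-Hochberg adjustment over all tested genes, called FDR below. After stress the change was -1.48 ± 0.05 on the log2 scale (FDR 6.9e-19). The count files hold 1 number per gene, so the exons from which the remaining reads came are not known. Ipo13 (ENSMUSG00000033365) lies at chr4:117894486-117914999 on the minus strand in GRCm38, shared no 100-base stretch of transcript with any other annotated gene and overlapped no other gene's exons. Stress did not change Ipo13 detectably, with a log2 fold change of 0.03 (95% interval -0.06 to 0.13) in WT and -0.01 (-0.11 to 0.10) in KO cells.

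**Figure D1:**
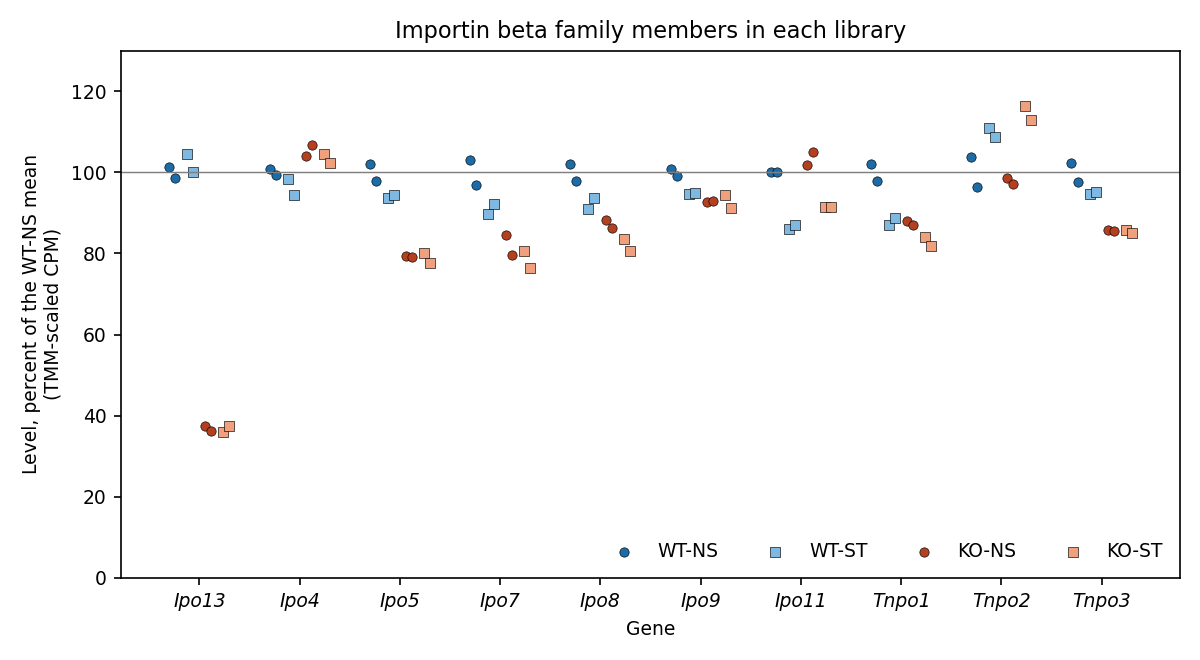
Each point is 1 library, given as the percentage of the WT-NS mean of that gene on the vertical axis after TMM scaling of CPM, for the 10 members along the horizontal axis, with circles for untreated and squares for H2O2-treated cells. The 4 KO libraries of Ipo13 sit far below the WT libraries, while those of the 9 paralogs stay close to the WT-NS level, with Ipo5 the lowest in KO-NS and Tnpo2 above it after stress.

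The comparison of untreated KO with untreated WT cells asked whether a paralog rises when IPO13 is missing. None of the 9 paralogs was called higher and 6 were called lower at an FDR below 0.05 (Ipo5, Ipo7, Ipo8, Ipo9, Tnpo1 and Tnpo3), while Ipo4, Ipo11 and Tnpo2 did not pass. No change reached the 2-fold threshold that the study adds to the FDR, which 4.71% of all tested genes passed. Over all tested genes 18.7% were called higher and 19.4% lower, and among the 2319 genes with a mean of at least 100 CPM, where all 9 paralogs lie, 13.1% were called higher and 45.5% lower. The median log2 fold change was -0.19 for the 9 paralogs, 0.00 for all tested genes and -0.09 for the genes of at least 100 CPM. The 6 lower calls among the 9 paralogs are to be read against that background, in which many well expressed genes were called lower. In bulk RNA, less RNA of a gene per cell and fewer cells that express it cannot be told apart.

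Ipo5, an import receptor for ribosomal proteins and core histones, had the largest fall. Its level was 1206 and 1156 CPM in WT-NS against 938 and 935 in KO-NS, without overlap. The log2 fold change was -0.33 ± 0.04 (SE; FDR 1.8e-08). Ipo7, which also carries ribosomal proteins, was at 441 and 413 CPM in WT-NS and 361 and 340 in KO-NS (log2 fold change -0.28 ± 0.04, FDR 4.2e-06). Its close relative Ipo8 fell from 116 and 111 to 100.5 and 98.2 CPM (-0.19 ± 0.04, FDR 0.00057). Tnpo3, the import receptor of SR splicing factors and among the nearest relatives of IPO13 in the family, was at 367 and 349 CPM in WT-NS and 307 and 306 in KO-NS (-0.22 ± 0.04, FDR 2.9e-05). Tnpo1, or transportin, imports RNA-binding proteins such as hnRNP proteins. Its level went from 443 and 425 to 382 and 377 CPM (-0.19 ± 0.04, FDR 0.00017). In each of these 5 genes both KO-NS libraries lay below both WT-NS libraries, as they did in 31.5% of all tested genes, and the call held under all 16 other settings tried. Ipo9, an import receptor of histones and actin, was at 249.7 and 245 CPM in WT-NS and 229 and 230 in KO-NS (-0.11 ± 0.04, FDR 0.028), and this call was lost under 10 of the 16 settings.

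The remaining 3 paralogs had the highest upper bounds in untreated cells with TMM factors. Ipo4, which imports histones and the vitamin D receptor among others, was at 163 and 160 CPM in WT-NS and 168 and 172 in KO-NS. Both KO libraries were higher, as in 30.7% of all tested genes, but the log2 fold change of 0.07 (95% interval -0.01 to 0.16) did not pass (FDR 0.16) with TMM factors, and it did with library totals as the only scaling (0.15, FDR 0.0029). Ipo11 was at 127 CPM in both WT-NS libraries and at 129 and 133 in KO-NS (0.05, interval -0.04 to 0.13, FDR 0.40), and it too passed with library totals (0.13, FDR 0.012). Tnpo2, the close relative of Tnpo1, gave -0.03 (interval -0.12 to 0.05, FDR 0.60), which became 0.05 with library totals. With TMM factors the highest upper bound of the 9 intervals was that of Ipo4, a 1.12-fold higher level in untreated KO cells. This bound depends on the scaling, and no interval is given for library totals, where the Ipo4 estimate was 0.15 on the log2 scale. With library totals the share of higher calls among all called genes went from 49% to 67.1%. Of the Ipo4 exon length 55.3% is also annotated to Gm49378 on the same strand, which is not among the counted genes, so its reads cannot be separated from those of that transcript.

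In stressed cells the comparison of KO with WT gave a similar list. The levels compared came from the stressed libraries, but the spread and the scaling were estimated in a fit shared with the untreated libraries. The stressed comparison is therefore not independent of the untreated one. Ipo5, Ipo7, Ipo8 and Tnpo3 were called lower, 5 paralogs did not pass and none was called higher, and none changed 2-fold, against 4.56% of all tested genes. The background was 19.1% higher and 17.5% lower over all tested genes, and 20.6% and 24% among those of at least 100 CPM. Ipo5 was at 1105 and 1114 CPM in WT-ST and 947 and 915 in KO-ST (log2 fold change -0.25 ± 0.04, FDR 2.0e-06). Ipo7 was at 384 and 394 against 345 and 326 CPM (-0.21 ± 0.04, FDR 0.00021). They were again the paralogs with the largest falls. Tnpo3 was at 339 and 340 against 307 and 304 CPM (-0.15 ± 0.04, FDR 0.0023). Ipo8 was at 103 and 107 against 95 and 91.8 CPM (-0.17 ± 0.04, FDR 0.0026), and lost its call without the second WT-ST library (FDR 0.063). In all 4 genes both KO-ST libraries lay below both WT-ST libraries, as in 31.7% of all tested genes. The calls of Ipo5, Ipo7 and Tnpo3 held under all 16 other settings. Tnpo1, called lower in untreated cells, gave -0.08 here (FDR 0.095), and was called lower under 4 of the 16 other settings, with FDR of 0.044 when the replicate number was blocked, 0.048 with relative log expression factors, and 0.039 and 0.040 without the first or the second WT-NS library. Ipo9 gave -0.03, Ipo11 0.08 and Tnpo2 0.06, with FDR of 0.57, 0.14 and 0.27.

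Ipo4 came nearest to a rise in stressed KO cells. Its level was 159 and 153 CPM in WT-ST and 169 and 165 in KO-ST, a log2 fold change of 0.10 ± 0.04 (interval 0.02 to 0.18, FDR 0.058). The call was made under 5 of the 16 other settings, with a lowest FDR of 0.023 when the replicate number was blocked. Over both conditions the 4 KO libraries of Ipo4 lay above the 4 WT libraries, from 165 to 172 against 153 to 163 CPM, which held for 15.7% of all tested genes. The opposite, all 4 KO libraries below all 4 WT libraries, held for Ipo13, Ipo5, Ipo7, Ipo8, Ipo9 and Tnpo3 and for 13% of all tested genes.

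**Figure D2:**
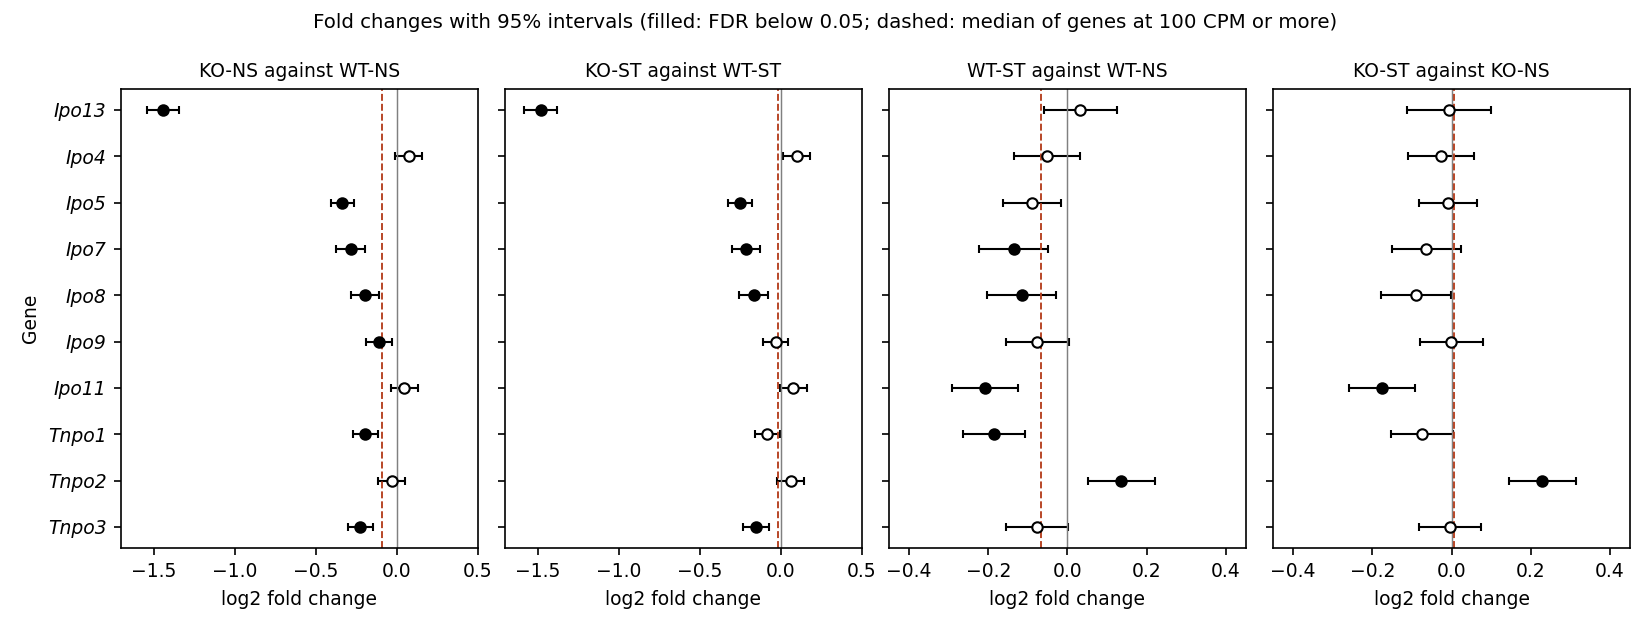
Log2 fold changes (horizontal axes, with a wider range in the first 2 panels) of the 10 members in the 4 comparisons, with 95% intervals from edgeR, filled where the FDR was below 0.05, and a dashed line at the median of genes with at least 100 CPM. Ipo13 lies at -1.44 and -1.48 in the genotype comparisons, no paralog exceeds 0.10 there with TMM factors, and Tnpo2 is the only paralog called to the right of 0 after stress.

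Of the 9 paralogs 1, Tnpo2, was called higher with stress, in both genotypes. In each genotype this count is near the share of all tested genes called higher, given at the end of this paragraph. Tnpo2 was at 245 and 228 CPM in WT-NS and 262 and 257 in WT-ST, a log2 fold change of 0.14 ± 0.04 (1.10-fold, FDR 0.015). In KO cells it went from 233 and 229 to 275 and 267 CPM, a change of 0.23 ± 0.04 (1.17-fold, FDR 8.5e-05). Stressed libraries were above untreated ones in both genotypes without overlap, as they were in 25.2% of all tested genes in WT and 29.9% in KO cells. The KO call held under all 16 other settings, and the WT call was lost without the second WT-NS library (0.08, FDR 0.15), the first WT-ST library (FDR 0.16) or the second WT-ST library (FDR 0.067). Of the Tnpo2 exon length 10.6% is also annotated, on the opposite strand, to A230103J11Rik, which is not among the counted genes. Whether the counting used strand is not given in the sources used here, so reads of the antisense gene cannot be told apart. The shares called higher with stress were 11.5% of all tested genes in WT and 14.9% in KO cells, and 8.02% and 25.1% of those of at least 100 CPM.

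Ipo11, which imports a ubiquitin-conjugating enzyme and a ribosomal protein, was called lower with stress in both genotypes. It went from 127 in both WT-NS libraries to 109 and 111 CPM in WT-ST (log2 fold change -0.21 ± 0.04, FDR 0.00029). In KO cells it went from 129 and 133 to 116 and 116 CPM (-0.18 ± 0.04, FDR 0.0013). The untreated and stressed libraries did not overlap in either genotype, a fall shown by 30.6% of all tested genes in WT and 29.5% in KO cells. The WT call held under all 16 other settings, and the KO call was lost without the second KO-NS library (-0.14, FDR 0.058). In WT cells 3 further paralogs were called lower. Tnpo1 went from 443 and 425 to 378 and 386 CPM (-0.19 ± 0.04, FDR 0.00052) and kept its call under all 16 settings. Ipo7 (-0.14 ± 0.04, FDR 0.018) and Ipo8 (-0.12 ± 0.04, FDR 0.046) lost theirs under 11 and 14 of them. The background of lower calls in WT cells was 13.8% of all tested genes and 31.3% of those of at least 100 CPM. With library totals as the only scaling, the share of higher calls among all genes called with stress in WT cells went from 45.4% to 60.5%.

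In KO cells Tnpo2 and Ipo11 were the only paralogs called with stress, against 14.4% of all tested genes called lower and 18.5% of those of at least 100 CPM. The other 7 had log2 fold changes between -0.09 for Ipo8 and 0.00 for Ipo9. The median of the 9 paralogs was -0.09 in WT and -0.03 in KO cells, beside -0.07 and 0.01 for genes of at least 100 CPM. In neither genotype did a paralog change 2-fold with stress, against 2.9% of all tested genes in WT and 2.89% in KO cells, and the highest upper bound of the intervals was 0.31 on the log2 scale, for Tnpo2 in KO cells.

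Whether the response to stress differed between the genotypes was tested as an interaction. None of the 9 paralogs passed in edgeR, against 2.71% of all tested genes, and 1 had an unadjusted p below 0.05 (Tnpo1, 0.11 higher in KO on the log2 scale, interval 0.00 to 0.22, FDR 0.33). The share of all tested genes below that unadjusted cutoff was not computed. With limma-voom and with DESeq2 no paralog passed either. All 9 differences were positive, with a median of 0.07, and the median of genes with at least 100 CPM was also 0.07. With library totals in place of TMM factors the median of the paralogs became 0.00018, Ipo4, Ipo8 and Ipo11 turned negative, and the share of higher calls among all called genes went from 74% to 30.8%. The largest upper bound among the paralogs was 0.22, so that a larger positive difference lay outside all 9 intervals. Tnpo2 gave a difference of 0.09 (interval -0.03 to 0.21), so its folds in KO and WT cells were not shown to differ.

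The summed level of the 9 paralogs in each library was 3357 and 3215 CPM in WT-NS, 3074 and 3096 in WT-ST, 2848 and 2822 in KO-NS, and 2853 and 2768 in KO-ST. Group means were 3286 ± 101 (SD, n = 2), 3085 ± 15, 2835 ± 18 and 2810 ± 60 CPM. Every KO library was below every WT library. From WT-NS to KO-NS the sum fell by 13.7%, and with library totals as the only scaling it fell by 8.76%. From WT-ST to KO-ST it fell by 8.90%, and with stress it fell by 6.13% in WT and fell by 0.869% in KO cells. With library totals as the only scaling it fell by 3.53% with stress in WT and fell by 3.06% in KO cells, so that under this scaling the changes in the 2 genotypes were close. Ipo5 alone accounted for 46.1% of the sum per kb of exon in WT-NS and 42.3% in KO-NS. In plain CPM it made up 1181 of 3286 in WT-NS and 937 of 2835 in KO-NS. Without Ipo5 the CPM sum fell by 9.83% from WT-NS to KO-NS. The CPM lost by Ipo13 itself was 43.8 in untreated cells, beside 451 lost by the 9 paralogs together. Both values are TMM-scaled CPM that were not scaled to exon length. In the same comparison the median log2 fold change of genes of at least 100 CPM was -0.09.

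**Figure D3:**
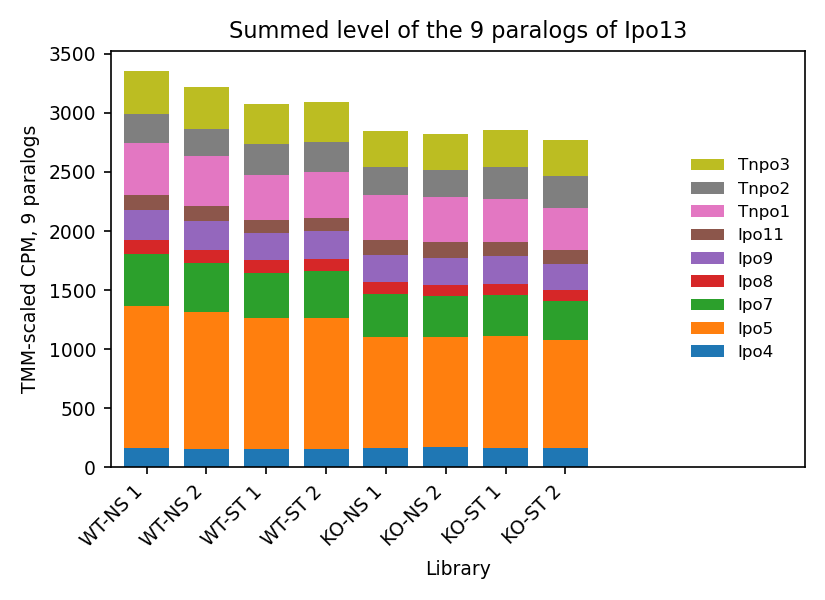
Stacked bars give the TMM-scaled CPM of the 9 paralogs (vertical axis, from 0) in each of the 8 libraries. The bars of the 4 KO libraries, from 2768 to 2853, are all lower than those of the 4 WT libraries, from 3074 to 3357, and the Ipo5 segment shrinks the most.

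Levels of different genes were compared per kb of exon, using the union of annotated exons. In WT-NS cells Ipo5 was by far the most abundant member, at 197 ± 5.94 CPM per kb (SD, n = 2). Tnpo1 (38.7 ± 1.15), Ipo7 (38.2 ± 1.71) and Tnpo2 (37.6 ± 1.96) followed and overlapped. Ipo4 came next at 34.6 ± 0.371, then Ipo9 at 30.1 ± 0.384 and Tnpo3 at 27.3 ± 0.933. Ipo13 was in the eighth place at 16.5 ± 0.331, ahead of Ipo11 at 16.1 and of Ipo8 at 7.20 ± 0.220. Ipo13 made up 3.72 ± 0.03% (SD) of the 10 members per kb in WT-NS and 1.62 ± 0.03% in KO-NS. In KO-NS it was the lowest of the 10 at 6.06 ± 0.151 CPM per kb, next to Ipo8 at 6.29 ± 0.101, and in KO-ST it overlapped Ipo8 (6.04 ± 0.179 against 5.91 ± 0.145). In WT-ST, KO-NS and KO-ST, Tnpo2 stood in the second place, at 41.3, 36.8 and 43.1 CPM per kb, close to Ipo4 at 36.4 in KO-NS.

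The order in the middle depends on the length used. With the longest transcript of each gene in place of the union of exons, Ipo5 stayed first (261 CPM per kb) and Ipo8 last (18.8), but Ipo7 took the second place (89.7), Tnpo3 the third (84.2), Tnpo1 the fourth (51.4), Tnpo2 the sixth (41.7), Ipo9 the seventh (39.6), Ipo11 the eighth (29.4) and Ipo13 the ninth (19.3). Which transcripts these cells use was not measured.

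**Figure D4:**
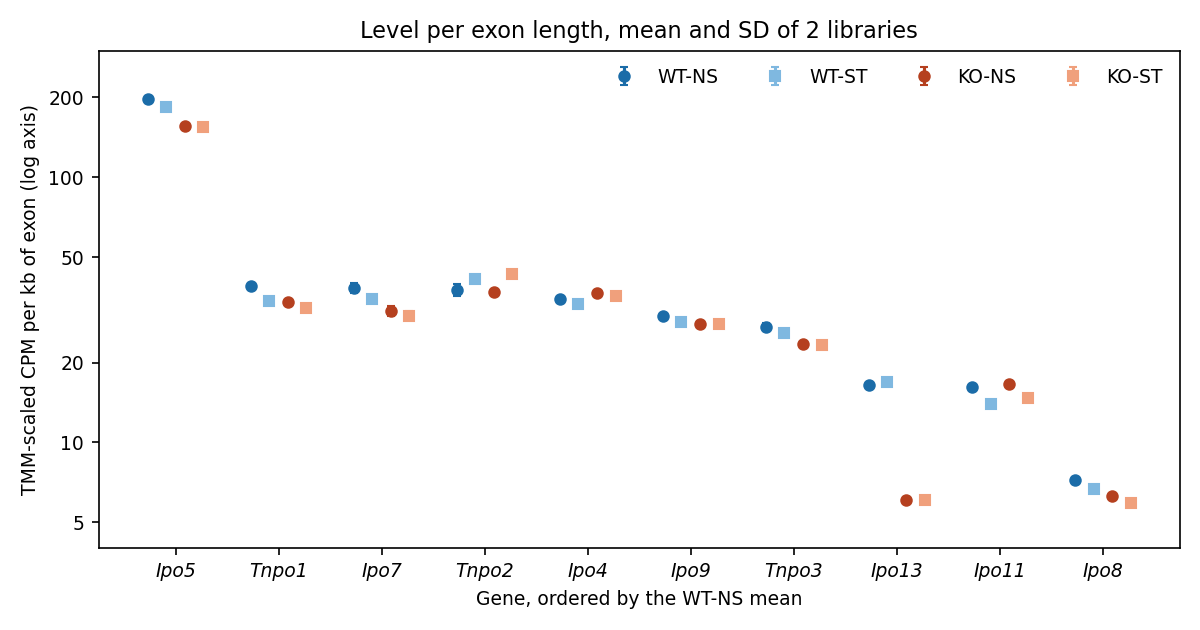
Mean TMM-scaled CPM per kb of exon (vertical log axis) with SD of 2 libraries for each member and group, ordered by the WT-NS mean. Ipo5 stands at 155 to 197 in all groups, and Ipo13 moves from 16.5 and 16.8 in the WT groups to about the level of Ipo8 in the KO groups. Each of the other 8 moves less between the groups than Ipo13 does.

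Among the 5 genes whose pattern over the 8 libraries was most like that of Ipo13 were Pla2g1b, Pttg1, Dhrsx and Ipp, with Pearson's r between 0.9985 and 0.9986 on log2 CPM among 12197 genes with a mean of at least 1 CPM. Pttg1, or securin, an inhibitor of the protease separase, was at 37.8 to 39.6 CPM in the WT and 17.7 to 19.2 in the KO libraries. Of these 4, Ipp had the largest difference, from 157 to 182 CPM in WT and 6.46 to 7.26 in KO. As the libraries fall into 2 sets by genotype, r describes mainly that step, and 990 of the 12197 genes had r above 0.9.

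Other genes of nuclear transport numbered 25, in the lists of other importin beta family members including exportins (10), importin alpha adaptors (6) and the RAN system (9). In untreated KO cells 18.7% of all tested genes were called higher and 19.4% lower. Of the genes of at least 100 CPM, where most of the 25 lie, 13.1% were called higher and 45.5% lower. Among the 25, 3 were called higher and 7 lower. The higher ones were Nutf2, which carries RAN-GDP into the nucleus (log2 fold change 0.24 ± 0.06, FDR 0.0015), the importin alpha gene Kpna2 (0.13 ± 0.04, FDR 0.0072) and its exporter Cse1l (0.11 ± 0.04, FDR 0.014). The largest falls were those of the exportin Xpo6 (-0.30 ± 0.05, FDR 4.9e-06), the importin alpha gene Kpna1 (-0.27 ± 0.04, FDR 1.3e-05) and the bidirectional transporter Xpo4 (-0.23 ± 0.05, FDR 0.00081). The calls of Kpna2 and Xpo4 were lost without the second KO-NS library (FDR 0.094 and 0.063). None changed 2-fold. Kpna2 was at 421 and 428 CPM in WT-NS and 455 and 473 in KO-NS. It was at 368 and 378 CPM in WT-ST and 455 and 453 in KO-ST. All 4 KO libraries of Kpna2 were thus above all 4 WT libraries, as in 15.7% of all tested genes.

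In stressed KO cells 19.1% of all tested genes were called higher and 17.5% lower. Of those of at least 100 CPM, 20.6% were called higher and 24% lower. Among the 25 transport genes, 6 were called higher and 3 lower. Kpna2 (0.28 ± 0.04, FDR 7.7e-07), Snupn (0.24 ± 0.06, FDR 0.0029), which imports spliceosomal snRNPs, and Nutf2 (0.21 ± 0.06, FDR 0.0043) had the largest rises. Ranbp6 (-0.33 ± 0.06, FDR 0.00012), a close relative of Ipo5, Xpo4 (-0.18 ± 0.05, FDR 0.010) and Xpo6 (-0.15 ± 0.05, FDR 0.0085) were the 3 lower. The calls of Xpo4 and Xpo6 were lost without either WT-ST library or the second KO-ST library (FDR up to 0.20 and 0.19), and that of Snupn without the second WT-ST or the second KO-ST library (FDR up to 0.071).

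With stress 14 of the 25 were called lower in WT cells, led by Xpo4 (-0.25 ± 0.05, FDR 0.00052), Ranbp17 (-0.24 ± 0.04, FDR 0.00011) and the pore protein gene Ranbp2 (-0.23 ± 0.04, FDR 0.00016), and 1 higher, Nutf2 (0.24 ± 0.06, FDR 0.0032), against 13.8% and 11.5% of all tested genes. In KO cells 10 were called lower, led by Ranbp6 (-0.22 ± 0.06), Xpo4 (-0.20 ± 0.05) and the main exportin gene Xpo1 (-0.17 ± 0.04), and 4 higher, led by Nutf2 (0.21 ± 0.06), Ranbp3 (0.16 ± 0.04) and Ran (0.12 ± 0.04), against 14.4% lower and 14.9% higher of all tested genes. Of these 6 KO calls that of Nutf2 held under all 16 other settings. Without the first KO-NS library the calls of the other 5 were lost, with FDR of 0.20 for Ranbp6, 0.16 for Xpo4, 0.085 for Xpo1, 0.073 for Ranbp3 and 0.14 for Ran. Without the second KO-ST library those of Ranbp6, Xpo4, Xpo1 and Ran were lost, that of Xpo4 was lost without the second KO-NS library, and that of Ran with library totals. No interaction passed among the 25, against 2.71% of all tested genes. Of the 25, 6 had an unadjusted p below 0.05 in edgeR. The share of all tested genes below that cutoff was not computed, so this count is not a result about the 25. The median log2 fold change of the 25 with stress was -0.15 in WT and -0.06 in KO cells. It was -0.07 and 0.01 for genes of at least 100 CPM, where most of the 25 lie. Of those well expressed genes, 31.3% were called lower and 8.02% higher with stress in WT cells. In KO cells 18.5% of them were called lower and 25.1% higher.

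The nearest expressed genes on each side of Ipo13 were also read, since the allele was made at this locus. Beyond its 3′ end lie Dph2, Atp6v0b and B4galt2, at gaps of 2.45, 7.15 and 11 kb, and beyond its start lie Artn, St3gal3 and Kdm4a, at gaps of 11.2, 17.2 and 222 kb, all 6 on the same strand as Ipo13. Of the upstream genes, Artn, a neurotrophic ligand, had 57 and 67 counts in WT-NS and 23 and 22 in KO-NS (log2 fold change -1.46 ± 0.22, FDR 5.5e-06). St3gal3, a sialyltransferase, was at 13.5 and 11.6 CPM in WT-NS and 7.87 and 7.86 in KO-NS (-0.67 ± 0.07, FDR 3.0e-08). Both were also lower in stressed KO cells (-1.36 ± 0.15 and -0.81 ± 0.07). Kdm4a, a histone demethylase, gave 0.07 and 0.01 and did not pass.

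On the other side, Dph2 did not pass in either condition (-0.08 and 0.00), and B4galt2, a galactosyltransferase, was higher in KO cells (0.35 ± 0.07 untreated and 0.26 ± 0.07 stressed). Atp6v0b, a subunit of the vacuolar proton pump, was at 92.0 and 102 CPM in WT-NS and 81.5 and 85.2 in KO-NS (-0.22 ± 0.05, FDR 0.00061). After stress it was at 106 and 107 CPM in WT and 121 and 128 in KO (0.23 ± 0.05, FDR 0.00031), so that the genotype difference had opposite signs in the 2 conditions. The untreated call was lost without the first KO-NS library (-0.17, FDR 0.081), and the stressed call held under all 16 other settings. The stressed call of B4galt2 was lost without the second WT-ST library (FDR 0.053). Of the 6 neighbours, 4 were called in untreated cells, where 38.2% of all tested genes were. The sequence of the allele was not analysed here.

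**Figure D5:**
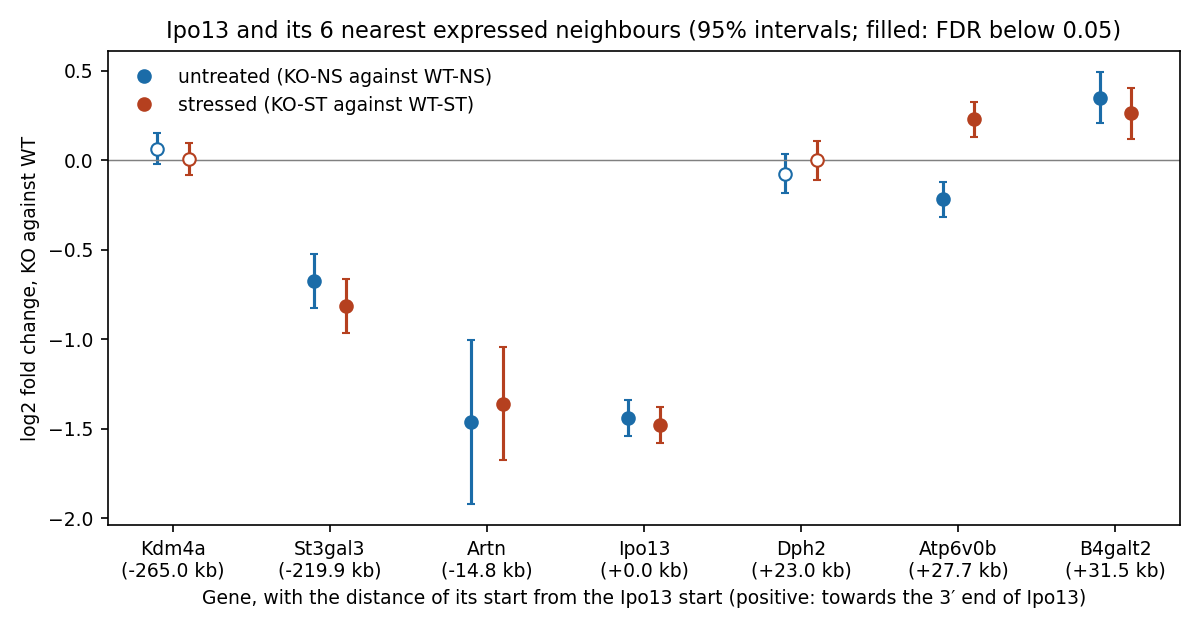
Log2 fold change of KO against WT (vertical axis) with 95% intervals for Ipo13 and its 6 neighbours, ordered along the chromosome and labelled with the distance of each start from that of Ipo13, untreated and stressed. Artn and St3gal3 lie below 0 with Ipo13 in both conditions, Dph2 and Kdm4a lie near 0, and Atp6v0b is below 0 untreated and above 0 after stress.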

How the data were processed

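RNA was read from 8 libraries of IPO13+/+ and IPO13-/- mESCs, with and without H2O2. The authors prepared libraries with an Illumina TruSeq mRNA kit and sequenced them with paired ends, and the labels and the Methods name different HiSeq models, lane numbers and read lengths. Per the submitters' processing notes, STAR 2.3.1, HTSeq and limma were used with the mm10 build. The annotation and strand setting are not given in the sources used here. The authors deposited, for each library, raw counts per gene and CPM, which is the count scaled to the library total. The deposited CPM differed from values computed from the counts by at most 0.0005 and were not used further. Groups and replicate numbers came from the library titles.

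Genes without any count in all 8 libraries were removed, and the other 19424 were fitted with edgeR 4.0.16 (quasi-likelihood test, R 4.3.3) in 1 model with TMM factors and 1 coefficient per group. Benjamini-Hochberg adjustment covered all tested genes. Calls were made at an FDR below 0.05, with the 2-fold threshold of the study beside it. SE was obtained from the log2 fold change and the F statistic, and 95% intervals use the t distribution with the degrees of freedom of the fit. The biological coefficient of variation was 3.36%. With 2 libraries a group, an exact permutation test of 1 gene cannot go below p = 0.333 and none is given. The procedure was run on simulated counts with changes set in a few well expressed genes and the same spread per gene in all groups. Such counts cannot test for unequal spread between groups or for changes in as many genes as were called here.

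Alternatives were limma-voom (limma 3.58.1), DESeq2 1.42.0, relative log expression factors, library totals alone, filterByExpr, no filter, the replicate number as a block, only the 4 libraries compared, and leaving out each library in turn. In the last case the lone library of a group was assumed to vary like the other groups. Positions, exon lengths and overlaps came from GENCODE M21 for GRCm38, where 21759 of 23418 distinct symbols were found, and promoters from RefSeq. Protein sequences were not used here.

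The genes named are all 10 members, the 3 largest rises and falls among called transport genes in each comparison, the 3 nearest genes on each side of Ipo13 with at least 10 counts in every library, the 5 genes most correlated with Ipo13 (1 of them is not reported here), and the cell type markers. The members and lists were chosen with earlier results of these data known.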

Additional observations from a re-analysis of the deposited data

Results flagged for a closer look

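Atp6v0b, the second gene beyond the 3′ end of Ipo13, responded to stress more strongly in KO than in WT cells, by 0.45 on the log2 scale (interaction in edgeR, FDR 0.00017). Of 15 other settings this call was lost under 1, without the first KO-NS library (0.39, FDR 0.083). Its level rose from 92.0 and 102 to 106 and 107 CPM in WT cells and from 81.5 and 85.2 to 121 and 128 CPM in KO cells. Stressed libraries lay above untreated ones in both genotypes, as in 25.2% of all tested genes in WT and 29.9% in KO cells. The rise in WT cells lost its call under 5 of 16 other settings, with the highest FDR (0.39) without the first WT-NS library, and the rise in KO cells held under all 16.

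Over all tested genes 2.71% passed the same interaction test, 74% of them with the KO response the higher, against 30.8% with library totals. Among the cell type markers, the stress response differed between the genotypes by this test for Zfp42 (0.22, FDR 0.048), Esrrb (0.21, FDR 0.020) and Thy1 (0.47, FDR 0.038). The KO response was the higher in all 3. These calls were lost under 12, 9 and 11 of the 15 other settings, limma-voom and library totals among them for all 3, and leaving out either WT-ST, either KO-NS or either KO-ST library ended each call. Their highest FDR on leaving out a library, in each case the first KO-NS library, was 0.28, 0.34 and 0.41. Esrrb went from 994 and 947 to 971 and 951 CPM in WT cells and from 798 and 809 to 939 and 906 CPM in KO cells. Zfp42 went from 79.0 and 79.4 to 72.4 and 73.5 CPM in WT cells and from 68.7 and 67.4 to 73.8 and 72.1 CPM in KO cells. Thy1, a surface protein listed here as a fibroblast marker, went from 4.72 and 4.95 to 4.19 and 3.88 CPM in WT cells and from 5.02 and 5.80 to 6.07 and 6.39 CPM in KO cells. No importin beta family member passed this test.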

How the results depend on the processing

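With library totals in place of TMM factors, 2 paralogs (Ipo4 and Ipo11) were called higher in untreated and 1 in stressed KO cells, 2 lower with stress in WT cells, 3 lower with stress in KO cells, and the sum of the paralogs changed by -8.76% in untreated KO cells. With the longest transcript as length, the order in WT-NS put Ipo7 at rank 2, Tnpo3 at 3, Tnpo1 at 4, Tnpo2 at 6, Ipo9 at 7, Ipo11 at 8 and Ipo13 at 9. In stressed KO cells 1 paralog, Ipo4, was also called higher in the fit of only the 4 libraries compared. With DESeq2, filterByExpr and only the 4 libraries compared, 2 paralogs were lower with stress in WT cells instead of 4. Leaving out 1 library gave 0 to 1 paralogs higher in stressed KO cells, 0 to 1 higher and 2 to 6 lower with stress in WT cells, and 0 to 1 lower with stress in KO cells. Over all genes, interaction calls numbered 390 higher and 137 lower, against 213 and 42 with limma-voom, 239 and 55 with DESeq2, 209 and 469 with library totals, and 62 to 794 and 11 to 363 on leaving out a library. Genes called lower numbered 3777 in untreated KO cells against 2453 with library totals, and 2679 with stress in WT cells against 1743 with DESeq2, 1731 with library totals and 1229 with only the 4 libraries. Leaving out 1 library gave 2426 to 3658 lower in untreated KO cells, 1365 to 2691 lower with stress in WT cells, and 1864 to 3233 higher and 1340 to 3222 lower with stress in KO cells. For the 25 other transport genes it gave 3 to 7 lower in untreated KO cells, 3 to 6 higher and 1 to 5 lower in stressed KO cells, 7 to 14 lower with stress in WT cells, and 1 to 4 higher and 0 to 10 lower with stress in KO cells. Library totals gave 6 of them higher and 4 lower in untreated KO cells and 2 higher with stress in KO cells, filterByExpr 5 higher in untreated KO cells, relative log expression factors 5 lower in stressed KO cells, and only the 4 libraries 8 lower with stress in WT cells. The cause of these moves was not tested.

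With the replicate number as a block, 1 paralog (Ipo4) was called higher and Tnpo1 also lower in stressed KO cells, Ipo5 was also called lower with stress in WT cells, no other count of paralog calls moved by more than 1.5 times, and interaction calls over all genes rose to 885 higher and 406 lower, with 3 higher among the other transport genes. Deviations of same-numbered libraries from their group means correlated at 0.562 between WT-NS and KO-ST. The correlation was 0.311 between WT-NS and KO-NS and 0.274 between KO-NS and KO-ST. Pairs with WT-ST lay between -0.057 and 0.0034. The sources used here do not say what a shared number stands for, so the main fit did not pair the libraries. What same-numbered libraries share was not tested.

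Reversed signs occurred only for values that did not pass the test. With library totals these were Tnpo2 in untreated KO cells (0.049), the interactions of Ipo4 (-0.047), Ipo8 (-0.045) and Ipo11 (-0.041), Dph2 untreated (0.0056) and St3gal3 with stress in KO cells (-0.0028). With filterByExpr the stress changes in KO cells became 0.0048 for Ipo13, 0.0034 for Ipo5, 0.011 for Ipo9 and 0.0073 for Tnpo3, and Dph2 in stressed cells -0.0014. With only the 4 libraries compared, Ipo9 became 0.0042 and Tnpo3 0.00036. With DESeq2 and relative log expression factors, in stressed cells, Dph2 became -0.015 in both and Kdm4a -0.0080 in both. Leaving out 1 library gave, as lowest and highest values, -0.084 and 0.023 for Tnpo2 in untreated KO cells, and, with stress in KO cells, -0.024 and 0.036 for Ipo13, -0.041 and 0.012 for Ipo4, -0.021 and 0.029 for Ipo5, -0.014 and 0.037 for Ipo9, -0.0041 and 0.015 for Tnpo3 and -0.019 and 0.10 for St3gal3. For the interaction these were -0.014 and 0.054 for Ipo4, -0.011 and 0.058 for Ipo8, -0.011 and 0.047 for Ipo11 and -0.034 and 0.21 for Artn. In stressed KO cells they were -0.026 and 0.027 for Dph2 and -0.022 and 0.037 for Kdm4a.

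With 2 libraries a group, changes under about 0.1 on the log2 scale were near the limit of detection at this depth for the members, whose standard errors were 0.04 to 0.05 in the comparisons of 2 groups.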
